A study of Mus musculus with 6 samples.

Results

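Methylation of CpG sites was examined at 8 genes of fibrotic matrix and of the myofibroblast: Tgfb1, Col1a1, Col1a2, Col3a1, Col4a1, Col4a2, Fn1 and Acta2. The sites are those with at least 10 covering reads in each of 6 libraries that lie in 7 spans of the mouse genome build mm9, each drawn around a gene with some flanking sequence; Col4a1 and Col4a2 share a span. This gave 455 CpG sites of 943307 sites covered as well across the genome: 95 in the Tgfb1 span, 39 in that of Col1a1, 9 in that of Col1a2, 3 in that of Col3a1, 221 in that of Col4a1 and Col4a2, 84 in that of Fn1 and 4 in that of Acta2. In all, 970 CpG sites of these spans were seen in some library. The level of a site is its methylated reads as a percent of its covering reads, and the level of a span is the mean over its sites.

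The libraries were made by reduced representation bisulfite sequencing of kidney cortex and outer medulla from male wild-type C57BL/6J mice. In this assay DNA is cut with MspI at CCGG, short fragments are kept, and bisulfite turns unmethylated cytosines into bases that are read as thymine, so that a CpG still read as cytosine counts as methylated. The files hold no expression values, so the labelled tissue was not checked against marker genes. There were 3 groups of 2 libraries. Saline 1 and saline 2 came from kidneys with unilateral ureteral obstruction (UUO) of 7 days and saline treatment, and 5AZA 1 and 5AZA 2 from kidneys with the same obstruction in mice injected intraperitoneally with the drug named 5AZA, at 1 mg/kg per day. The 2 sham libraries had surgery without ligation: sham 1 served the obstruction model, whereas sham 2 carries the label of a kidney ischemia/reperfusion model, with 48 hours in its name. The comparisons ask how methylation at these genes differs after obstruction (saline minus sham) and after the drug within obstruction (5AZA minus saline); 5AZA minus sham is given beside them. The first 2 comparisons share the saline libraries, so a library pair that is high in saline enters both. Nothing in the labels says that libraries came from separate mice, so the error behind every p-value is that between these libraries and could be technical. Kidney tissue is a mixture, and a change in its cell types cannot be told apart from a change of methylation within a cell type.

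In a fibrotic kidney, transforming growth factor beta 1, the product of Tgfb1, acts on fibroblasts and pericytes through its receptors and Smad proteins and drives them towards the myofibroblast state. Myofibroblasts hold smooth muscle actin, the product of Acta2, and secrete the fibrillar collagens type I (Col1a1, Col1a2) and type III (Col3a1) together with fibronectin (Fn1). Col4a1 and Col4a2 encode the chains of type IV collagen, the network of basement membranes, and lie head to head with a shared promoter region. Methylation of cytosine in CpG pairs is typically absent at CpG-rich promoters and high elsewhere, and 5-azacytidine-type drugs trap the enzymes that maintain it.

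The start regions of 4 of the 8 genes could be found in the mm9 data. RefSeq (GRCm38.p6) promoter entries, 250 bases before to 50 bases after the start, exist for 6 genes and were laid on the deposited mm9 positions by the spacing of their CpG pairs. The Tgfb1 entry coincided with 23 deposited CpG positions, Col4a2 with 22, Col4a1 with 20 and Col1a2 with 8, each at a single best place, which put the start sites at position 26472021 of chromosome 7 (Tgfb1, forward strand), 4455618 of chromosome 6 (Col1a2, forward), and 11312826 (Col4a1, reverse) and 11312805 (Col4a2, forward) of chromosome 8. The entry of Col3a1 has no CpG and that of Acta2 has 6, and neither was placed. The 250 bases before the start of Tgfb1 and Col1a2 are printed to show where CCGG and other CpG pairs lie in such a promoter. Capitals mark CCGG, the MspI site; all other bases are in lower case, 5′ to 3′ on the strand of the gene.
Tgfb1, chr7:26471771-26472020 (mm9), forward strand: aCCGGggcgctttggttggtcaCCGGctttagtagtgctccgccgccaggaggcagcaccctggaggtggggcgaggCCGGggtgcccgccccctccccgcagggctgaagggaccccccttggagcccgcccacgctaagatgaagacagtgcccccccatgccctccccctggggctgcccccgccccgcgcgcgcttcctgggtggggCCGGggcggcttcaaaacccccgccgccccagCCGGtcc
Col1a2, chr6:4455368-4455617 (mm9), forward strand: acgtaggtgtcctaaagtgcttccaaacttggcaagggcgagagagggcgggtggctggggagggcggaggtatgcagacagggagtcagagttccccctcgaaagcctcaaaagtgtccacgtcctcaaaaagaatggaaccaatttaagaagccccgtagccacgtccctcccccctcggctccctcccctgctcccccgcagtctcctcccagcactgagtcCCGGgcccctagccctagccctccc

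Covered CpG sites inside CCGG had high measured levels in these promoters, and all other covered CpG sites had levels near 0%. The stretch before Tgfb1 holds 21 CpG pairs, 5 of them in CCGG, and that before Col1a2 holds 11, of which 1 is in CCGG. The Tgfb1 CCGG that lies 38 bases before the start, covered by at least 12 reads in each library, was at 84.8% and 65.5% in saline, 91.7% and 78.6% in sham, and 83.3% and 91.3% in 5AZA. The CpG 17 bases further upstream, at position −55, was at 0% in all 6 libraries. In Col1a2 the CCGG at −24 was at 79.4% and 71.7% in saline, 71.9% and 56.2% in sham, and 83.3% and 73.7% in 5AZA, whereas the CpG at 11 bases past the start had a mean of 1.83%. Over the 4 placed promoters, 11 covered CCGG sites had means over the libraries of 64.7% to 82.5%, and 41 other CpG sites had means of 0% to 4.19%; no site lay between. The split was seen in each library: the CCGG sites averaged 75.6% and 74.0% in saline, 73.0% and 66.1% in sham, and 74.9% and 72.5% in 5AZA, the other sites 1.84% and 2.16%, 1.66% and 0.758%, and 1.72% and 1.88%. In 9 other genes of the fibrosis pathway with a placed promoter, 22 CCGG sites ranged from 52.3% to 93.8% and 106 other sites from 0% to 7.74%. CCGG (the same on both strands) occurs in 52.8% of all 32851 RefSeq promoters of this length. Per the labels' protocols, the nucleotides used for repairing fragment ends included methylated dCTP, and the part of this step in the level of CCGG sites was not tested.

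**Figure D1:**
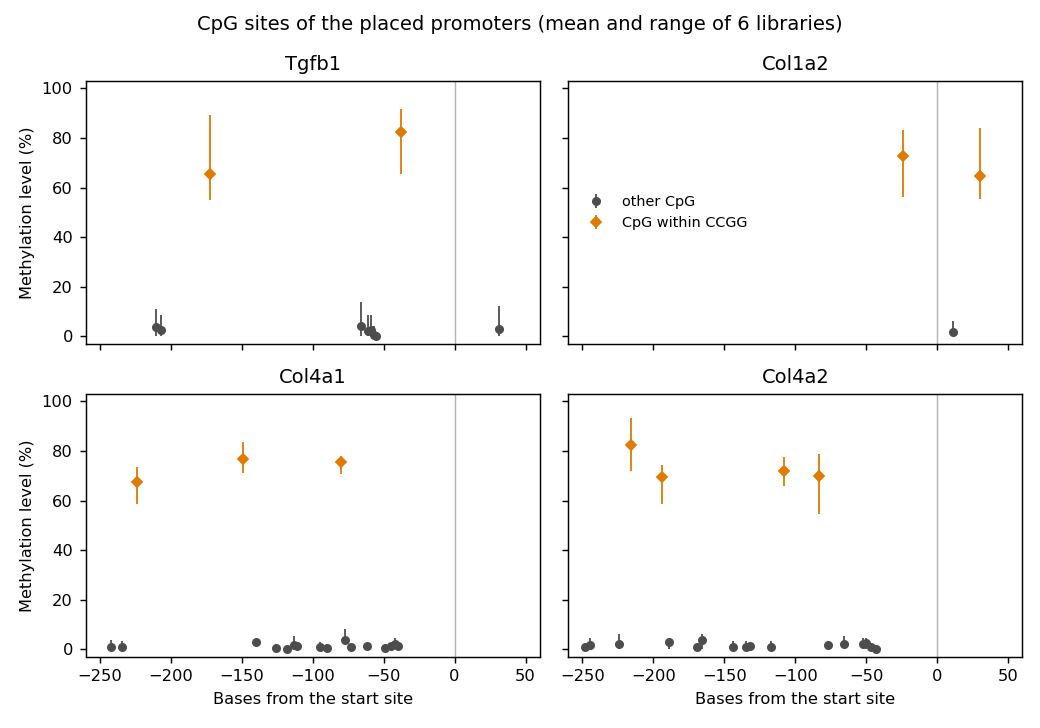
Methylation level (percent, vertical axis) of each covered CpG site against its distance from the start site (bases, horizontal axis) in the placed promoters of Tgfb1, Col1a2, Col4a1 and Col4a2. Points are means of the 6 libraries and bars run from the lowest to the highest library; CpG sites in CCGG (orange) have means of 64.7% or more, the others (grey) of 4.19% or less.

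Covering reads per library summed to between 37728517 (sham 2) and 76730132 (saline 1), with a median of 21 to 48 reads per site. Sham 2 had the fewest reads and stood apart from sham 1: its mean level over all 943307 sites was 42.9% against 44.4% in sham 1, whereas the saline libraries were at 45.3% each and the 5AZA libraries at 43.5% and 43.05%. Differences from sham are therefore also given against sham 1 alone. With 2 libraries against 2, an exact two-sided permutation test cannot go below 0.33, so levels of spans are described without a test; tests were run with edgeR on windows of 1 kb and on single sites across the whole genome, with Benjamini-Hochberg adjustment over all of them.

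In the obstructed saline kidneys the spans of 6 of the 7 had higher levels than in both sham kidneys, and the same 6 were lower with 5AZA than in both saline kidneys; Fn1 was the exception in both. The mean over all sites of the genome had the same order without overlap. It was at 45.3% in each saline library, 44.4% and 42.9% in sham, and 43.5% and 43.05% in 5AZA, so the order was not particular to the members. Over all 455 sites the level was 59.97% and 59.87% in saline, 58.3% and 56.1% in sham, and 57.3% and 54.96% in 5AZA. That is a difference of 2.74 points for saline minus sham, −3.79 points for 5AZA minus saline and −1.06 points for 5AZA minus sham. Against sham 1 alone, saline minus sham was 1.66 points and 5AZA minus sham −2.13 points; against sham 2 alone they were 3.81 and 0.0217 points, so the sign of 5AZA minus sham depended on the sham library. Over all sites of the genome the differences were 1.61 points for saline minus sham (0.865 against sham 1 alone), −2.04 for 5AZA minus saline and −0.432 for 5AZA minus sham (−1.18 against sham 1 alone and 0.314 against sham 2 alone), and the members differed in the same directions as the genome in each of these. As mean ± SD over the 2 libraries of a group, the members were at 59.9% ± 0.0756 in saline, 57.2% ± 1.52 in sham and 56.1% ± 1.66 in 5AZA. The sites of intermediate level differed most. At 124 sites whose mean lay between 20 and 80%, saline averaged 63.1% and 62.7%, sham 58.7% and 54.3%, and 5AZA 58.3% and 54.1%. This class differed by 6.40 points for saline minus sham and by −6.72 points for 5AZA minus saline, against 4.22 and −3.96 points over the 181200 sites of that class in the genome. Most of the 11 covered CCGG sites of the placed promoters, with means of 64.7% to 82.5%, fall in this class. Their part in its differences was not tested. The 127 sites under 20% differed by 1.90 and −1.22 points and the 204 sites of 80% or more by 1.03 and −3.61 points. Over the genome the sites under 20% differed by 0.935 and −0.367 points and those of 80% or more by 1.07 and −3.33 points. Against sham 1 alone the saline minus sham differences were 1.58 points under 20%, 4.17 at 20 to 80% and 0.180 at 80% or more, beside 0.456, 2.27 and 0.639 points over the genome's sites of these classes.

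**Figure D2:**
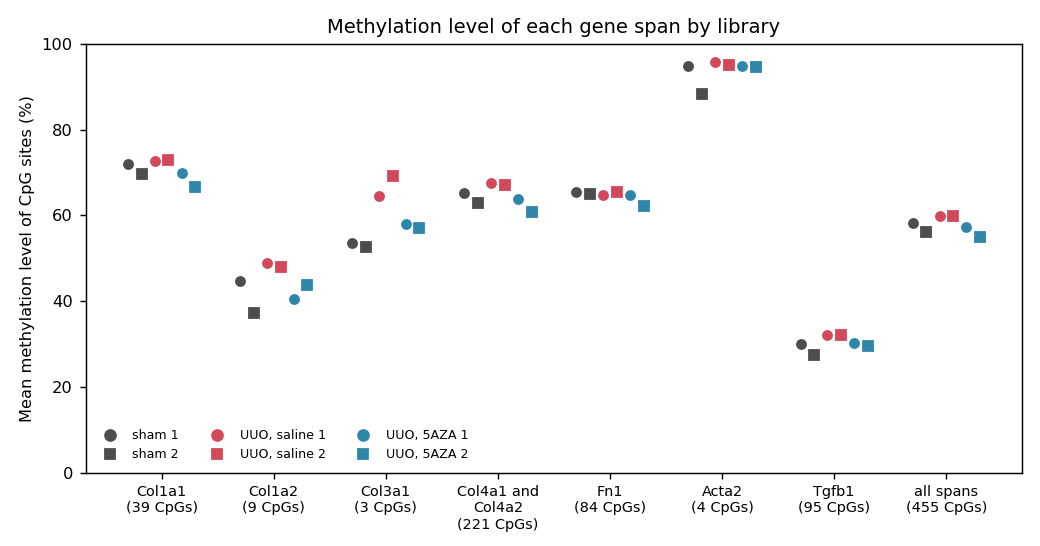
Mean methylation level of CpG sites (percent, vertical axis) in each gene span and over all spans (horizontal axis, with the number of CpG sites), with a point for each of the 6 libraries. Both saline libraries (red) lie above both sham libraries (black) and both 5AZA libraries (blue) in every span but that of Fn1; sham 2 is the lower sham library in every span. The mean over all sites of the genome, not drawn, has the saline libraries highest too.

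Tests across the genome called almost none of these differences. Of 89813 windows with at least 3 sites, 59 lie in the spans. At an adjusted p under 0.05 no member window was called for saline minus sham, where 0.0501% of all windows were; 1 was called, as lower, for 5AZA minus saline, where 1.55% of all windows were; and none was called for 5AZA minus sham, where 0.00111% were. At an unadjusted p under 0.05 the members counted 11, 21 and 13 windows in these comparisons, against 10.4%, 23.2% and 14.7% of all windows. Of the 59 windows, 20 had both saline libraries higher than both sham libraries (33.9%; 32.3% of all windows did) and 6 had them lower (10.2%; 9.73% of all). In 34 windows both 5AZA libraries were lower than both saline libraries (57.6%; 49.1% of all), and in 3 they were higher (5.08%; 5.69% of all). Against sham, both 5AZA libraries were higher in 9 windows and lower in 18, where 12.9% and 31.9% of all windows were. The median difference of the member windows was 1.31 points for saline minus sham, −4.35 for 5AZA minus saline and −1.48 for 5AZA minus sham, beside 1.13, −2.70 and −1.12 over all windows. Of the 453 member sites that entered the site test, none was called in any comparison by edgeR (0.00283%, 0.00163% and 0.00152% of all sites were), and 26, 43 and 16 had an unadjusted p under 0.05 (5.74%, 9.49% and 3.53%, against 3.99%, 5.22% and 3.52% of all sites). In data simulated for saline minus sham, the window test recovered 70% of 200 windows changed by 20 points among 89813, with 6 false calls. The site test recovered 1.5% of 200 sites among 97528, with 0 false calls. Only windows and sites of intermediate level and above a minimum of reads in every library were changed, with 1 spread for all. The simulated window fit had a common dispersion of 0.0118, against 0.00632 in the data. These rates do not cover windows of few reads or of high or low level.

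Tgfb1, the ligand of the group, had the lowest span level, and its largest window differences lay around the far end of the gene, with smaller ones near its start. The 95 sites averaged 32.2% and 32.0% in saline, 29.9% and 27.4% in sham, and 30.3% and 29.5% in 5AZA. Saline was above sham by 3.47 points, or 2.19 points against sham 1 alone, and 5AZA was below saline by 2.20 points; the SD over 2 libraries was 0.150 in saline, 1.81 in sham and 0.603 in 5AZA. Of these sites 51 were under 20%, with library means of 1.73% to 3.02%; the 35 sites of 20 to 80% were at 60.7% and 59.5% in saline, 54.4% and 50.3% in sham, and 56.7% and 53.5% in 5AZA. The window chr7:26489001-26490000, with 12 sites, has its centre 17.5 kb past the start site of a gene that is 18076 bases long in RefSeq on GRCm38.p6. It was at 47.2% and 45.2% in saline, 37.5% and 32.0% in sham, and 35.7% and 36.2% in 5AZA. Neither group overlapped with saline: the difference was 11.5 points for saline minus sham (8.67 against sham 1 alone; adjusted p = 0.155) and −10.2 points for 5AZA minus saline (adjusted p = 0.058). Both saline libraries were above both sham libraries at 10 of its 12 sites, as at 23.0% of all sites, and both 5AZA libraries below them at 11, as at 26.7% of all sites. The window was named for its large differences, and neighbouring sites can share reads, so these counts are not separate support. The next window, chr7:26490001-26491000, with 14 sites, lies mostly past the end of the gene by that length, as does the site in it named below. This window was at 64.4% and 63.1%, 56.8% and 53.5%, and 54.9% and 53.2% in saline, sham and 5AZA. Its differences were 8.65 points (7.01 against sham 1 alone; adjusted p = 0.254) and −9.70 points (adjusted p = 0.0679), in the same directions as its neighbour. The site at 26490235 in it, with 42 to 66 reads, was at 59.1% and 50% in saline, 30.4% and 38.1% in sham, and 38.1% and 23.9% in 5AZA (adjusted p = 0.937 and 0.901 in the site test).

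In 3 of the 4 windows near the Tgfb1 start the 5AZA libraries lay above the saline ones. The windows at 26471001, 26473001 and 26474001 were the 3 member windows with both 5AZA libraries higher than both saline libraries, by 2.92, 4.01 and 6.65 points (adjusted p = 0.565, 0.287 and 0.168). Both 5AZA libraries were higher in 5.69% of all windows, 16.2% of those under 20% and 6.73% of those at 20 to 80%. At 26471001 the 2 sites of 50% or more, both in CCGG, were higher with 5AZA by 8.66 points on average. At 26474001 the 4 such sites were higher by 7.09 points. In both windows the mean of the other sites overlapped between 5AZA and saline. The part of end repair here was not tested. In the window at 26473001, centred 1.48 kb past the start, 22 of 29 sites had mean levels of 5.01% or less. Its other 7 sites were at 72.4% and 67.1% in saline, 75.5% and 69.9% in sham, and 80.5% and 75.5% in 5AZA. All 7 belong to a class of candidate fragment-end sites, defined by coverage and level, whose part in these differences was not tested. The window at 26474001 showed how a pooled level can move with read numbers. Pooled over reads it was at 14.4% and 21.9% in saline, 30.5% and 19.9% in sham, and 23.3% and 26.3% in 5AZA, a difference of −7.06 points for saline minus sham (adjusted p = 0.399). As a mean over its 19 sites, saline was at 15.25% and 16.7%, sham at 16.98% and 14.97%, and 5AZA at 17.5% and 16.97%, with 16.0% in saline and sham alike. The window that holds the start site, at 26472001 with 5 sites, was at 18.6% in each saline library, 17.3% and 12.1% in sham, and 19.5% and 16.0% in 5AZA. There both saline libraries were above both sham libraries, by 3.88 points (adjusted p = 0.691), and saline and 5AZA overlapped (adjusted p = 0.932). Its 1 site of 50% or more was at 79.4% and 77.6% in saline, 65.6% and 58.5% in sham, and 73.9% and 68.2% in 5AZA, without overlap with saline. The mean of its other 4 sites overlapped between the groups.

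Among the fibrillar collagens, Col1a1, which encodes the alpha 1 chain of type I collagen, had 21 of its 39 sites at 80% or more, 16 at 20 to 80% and 2 under 20%. No promoter entry was at hand for it. The sites averaged 72.7% and 72.8% in saline, 72.0% and 69.6% in sham, and 70.0% and 66.6% in 5AZA. Saline exceeded sham by 1.98 points, or 0.802 points against sham 1 alone, and 5AZA was 4.44 points below saline, with SDs (n = 2) of 0.103 in saline, 1.66 in sham and 2.39 in 5AZA. None of its 10 windows was called. The window of largest difference, chr11:94798001-94799000, held 3 sites of few reads (30 to 69 reads per library in all) and was at 39.4% and 38.7% in saline, 17.1% and 13.3% in sham, and 30.3% and 21.7% in 5AZA. Saline was above sham there by 23.8 points (22.0 against sham 1 alone; adjusted p = 0.272) and 5AZA below saline by 13.0 points (adjusted p = 0.283). All 3 sites of this window, named for its difference, had both saline libraries above both sham libraries, as did 23.0% of all sites. The site at 94798613 was at 63.6% and 81.8% in saline, 46.2% and 40.0% in sham, and 66.7% and 60.9% in 5AZA, from 10 to 24 reads each. The neighbouring window at 94797001, with 3 sites, was at 83.9% and 77.3% in saline, 73.7% and 81.2% in sham, and 74.1% and 68.6% in 5AZA, so saline and sham overlapped (adjusted p = 0.859). The window at 94805001 was at 76.1% and 73.6%, 70.8% and 67.2%, and 71.1% and 71.2% in saline, sham and 5AZA, 5.84 points higher in saline than in sham (adjusted p = 0.691).

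Col1a2, the alpha 2 chain of type I collagen, had only 9 covered sites, all in the windows before and at its start. They averaged 48.9% and 48.1% in saline, 44.8% and 37.3% in sham, and 40.6% and 43.8% in 5AZA. The difference from sham was 7.49 points but 3.75 points against sham 1 alone; 5AZA was 6.30 points below saline. The window centred 1.12 kb before the start, chr6:4454001-4455000 with 6 sites, was at 47.9% and 45.0% in saline, 45.3% and 36.6% in sham, and 37.3% and 43.0% in 5AZA (adjusted p = 0.739 for saline minus sham and 0.299 for 5AZA minus saline). The window of the start holds 3 sites, and its level depended on how they were averaged. Pooled over reads it was at 38.8% and 50.8% in saline, 57.3% and 32.1% in sham, and 42.4% and 50% in 5AZA, with the groups overlapping (adjusted p = 0.957 and 0.886). As a mean over the 3 sites it was at 50.98% and 54.0% in saline, 43.4% and 37.5% in sham, and 47.2% and 45.4% in 5AZA, so saline was above both other groups without overlap. These differences, 12.04 points for saline minus sham and −6.19 points for 5AZA minus saline, are given without a test. They rest on the 2 CCGG sites, whose mean differed by 16.5 and −8.83 points, while saline overlapped with both groups at the other site. Of the 2, only the CCGG site 30 bases past the start had no overlap with saline, with differences of 21.5 and −20.6 points. At the CCGG site at −24 saline, at 79.4% and 71.7%, overlapped with sham and with 5AZA, which was at 83.3% and 73.7%. The part of end repair in these differences was not tested. The CCGG site 30 bases past the start was at 73.5% and 84.0% in saline, 58.3% and 56.2% in sham, and 55.6% and 60.7% in 5AZA, from 12 to 34 reads (adjusted p = 0.937 and 0.901 in the site test).

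Col3a1, the gene of type III collagen, showed the largest span difference but rests on 3 sites of a single window, chr1:45372001-45373000. The site mean was 64.6% and 69.3% in saline, 53.6% and 52.7% in sham, and 58.0% and 57.1% in 5AZA. Saline was 13.8 points above sham, and 13.3 points above sham 1 alone; 5AZA was 9.42 points below saline and 4.38 points above sham, with SDs (n = 2) of 3.28, 0.641 and 0.654 in saline, sham and 5AZA. Each of the 3 sites was higher in both saline libraries than in both sham libraries, as were 23.0% of all sites. The site at 45372827, with 54 to 99 reads per library, was at 20.2% and 32.8% in saline, 13.8% and 7.41% in sham, and 14.5% and 21.3% in 5AZA. It is a candidate fragment-end site, and the part of that in its difference was not tested. The mean of the other 2 sites differed by 12.7 points for saline minus sham and by −9.82 points for 5AZA minus saline. Pooled over reads the window differed by 14.5 points for saline minus sham and by −9.02 points for 5AZA minus saline, and neither was called (adjusted p = 0.336 and 0.302).

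Type IV collagen gave the only called window. The 221 sites of Col4a1 and Col4a2 averaged 67.6% and 67.1% in saline, 65.3% and 62.9% in sham, and 63.8% and 60.8% in 5AZA. Saline was 3.25 points above sham, or 2.09 above sham 1 alone, and 5AZA was 5.06 points below saline, with SDs (n = 2) of 0.355, 1.64 and 2.15 in saline, sham and 5AZA. In 23 of the 30 windows (76.7%; 49.1% of all windows) the 5AZA pair was lower than the saline pair without overlap, and in 12 (40%; 32.3% of all) the saline pair was higher than the sham pair. On the Col4a1 side 8 of 15 windows (53.3%) were of the latter kind, with a median difference of 3.14 points; on the Col4a2 side 4 of 15 (26.7%) were, with a median of 1.36 points. The medians for 5AZA minus saline were −7.24 points on the Col4a1 side and −5.38 points on the Col4a2 side. A difference between the sides was not tested.

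The called window, chr8:11279001-11280000, lies 33.3 kb into Col4a1, whose RefSeq length on GRCm38.p6 is 114467 bases. Whether it is exonic or intronic is not given here, since no annotation of mm9 was used. Its 11 sites pooled to 52.0% and 47.8% in saline, 33.3% and 35.5% in sham, and 39.9% and 34.4% in 5AZA, from 330 to 1089 reads per library. It fell with 5AZA by 12.8 points (adjusted p = 0.0474) and was higher in saline than in sham by 15.5 points (16.6 against sham 1 alone), which was not called (adjusted p = 0.0941). The 7 sites with a mean under 50% differed most, at 32.7% and 31.8% in saline, 9.01% and 7.50% in sham, and 15.2% and 10.2% in 5AZA. Each of these 7 sites had both saline libraries above all 4 others. Over all sites, the saline pair was above the sham pair at 23.0%, and the 5AZA pair was below the saline pair at 26.7%. The window was named for its difference, so the agreement of its sites is not separate support. The other 4 sites of the window were at 78.3% and 82.2%, 73.1% and 75.4%, and 78.0% and 72.4% in saline, sham and 5AZA, also without overlap with saline, by 5.99 points for saline minus sham and −5.05 points for 5AZA minus saline. Sites at 11279391, 11279403 and 11279425 had equal coverage in each library (60 and 112 reads in saline, 152 and 29 in sham, 63 and 138 in 5AZA), as sites read on the same fragments would, so the window holds fewer independent molecules than site counts. The call stands at the threshold: it was lost when any library but 5AZA 1 was left out, for example with an adjusted p of 0.0625 without sham 2 and 0.261 without 5AZA 2, and with limma (adjusted p = 0.17).

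Other Col4a1 windows showed the same order of groups without being called. The window chr8:11308001-11309000, centred 4.33 kb past the Col4a1 start with 5 sites, was at 76.3% and 69.1% in saline, 56.3% and 52.4% in sham, and 64.6% and 56.4% in 5AZA. Its differences were 18.3 points for saline minus sham (16.4 against sham 1 alone; adjusted p = 0.135) and −12.2 points for 5AZA minus saline (adjusted p = 0.0868). The adjoining window chr8:11309001-11310000, with 3 sites, was at 91.5% and 83.4%, 74.6% and 68.1%, and 75.6% and 72.7% in saline, sham and 5AZA, with differences of 16.1 points (12.9 against sham 1 alone; adjusted p = 0.198) and −13.3 points (adjusted p = 0.0761). Within the first of them lies the member site of largest difference whose groups did not overlap, at 11308944. It was at 63.6% and 48.1% in saline, 18.8% and 13.2% in sham, and 29.6% and 28.7% in 5AZA, from 38 to 115 reads; the difference of 39.9 points had an adjusted p of 0.195 in the site test. Around the shared start region nothing of this size was seen. The window chr8:11312001-11313000, with 42 sites and at least 1681 reads per library, was at 14.1% and 13.6% in saline, 13.3% and 12.4% in sham, and 13.4% and 12.8% in 5AZA, a difference of 1.02 points for saline minus sham (adjusted p = 0.728) and −0.714 for 5AZA minus saline (adjusted p = 0.659). The start sites lie 21 bases apart, and of the 42 sites 35 averaged 0.888% to 1.89% and 7 averaged 68.6% to 74.4% per library. The window at 11313001 was at 19.01% and 15.1% in saline, 14.7% and 16.1% in sham, and 19.4% and 16.6% in 5AZA (adjusted p = 0.775 and 0.804).

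**Figure D3:**
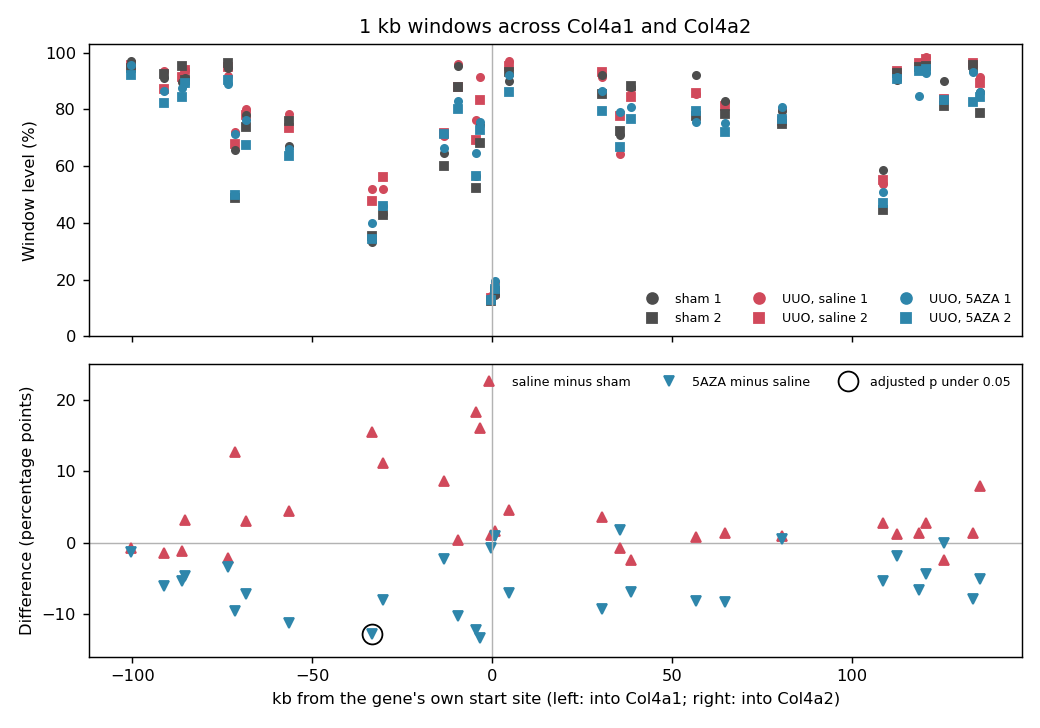
Windows of 1 kb across Col4a1 (left of 0) and Col4a2 (right of 0), by distance of the window's centre from the gene's own start site (kb). Upper panel, level of each library (percent); lower panel, differences between group means (percentage points), with the called window circled at 33.3 kb into Col4a1. The windows at 3 to 5 kb and at 33.3 kb into Col4a1 show the largest differences for saline minus sham, and the windows at the start site the lowest levels.

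**Figure D4:**
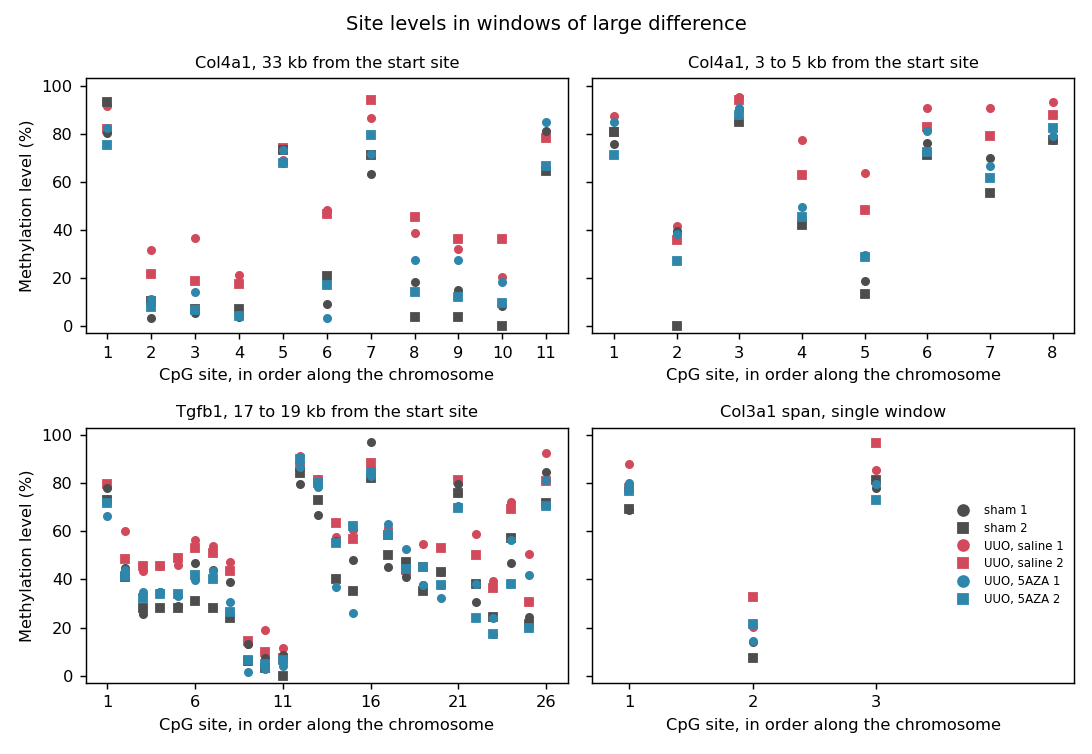
Methylation level (percent, vertical axis) of each CpG site, in order along the chromosome (horizontal axis), in the windows of Col4a1, Tgfb1 and Col3a1 described in the text, with a point for each library. Saline (red) lies above sham (black) and 5AZA (blue) at 8 of the 11 sites of the called Col4a1 window, and sites of high and low level stand side by side within a window. Over all sites, the saline pair was above the sham pair at 23.0%, and the 5AZA pair was below the saline pair at 26.7%.

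Fn1, the gene of fibronectin, did not follow the other spans. Its 84 sites averaged 64.7% and 65.6% in saline, 65.4% and 65.0% in sham, and 64.7% and 62.3% in 5AZA. Saline and sham overlapped, with a difference of −0.05 points (−0.28 against sham 1 alone), and saline and 5AZA overlapped too, with a difference of −1.63 points. Of its 8 windows, 7 were at 85.7% or more in every library, as in chr1:71656001-71657000, with 10 sites at 95.6% and 97.5% in saline, 95.6% and 97.0% in sham, and 95.6% and 90.0% in 5AZA. In 4 of the 8 both saline libraries were below both sham libraries, where 9.73% of all windows and 13.7% of windows at 80% or more were, among them chr1:71675001-71676000 at 91.5% and 94.8% in saline against 95.8% and 96.1% in sham (adjusted p = 0.422). The window at 71692001 was at 92.7% and 91.7% in saline, 92.9% and 95.6% in sham, and 92.1% and 86.1% in 5AZA (adjusted p = 0.783 and 0.344). That at 71673001 was at 85.7% and 95.8% in saline, 94.1% and 95.8% in sham, and 93.3% and 89.0% in 5AZA, with saline 1 the lowest of the 6 (adjusted p = 0.914). A dense window, chr1:71699001-71700000, was the exception to the high levels: 25 of its 34 sites averaged 1.16% to 3.11% per library and 9 averaged 72.9% to 77.7%. Its pooled levels were 18.8% and 16.9% in saline, 17.4% and 16.1% in sham, and 19.1% and 17.6% in 5AZA (adjusted p = 0.806 and 0.875). The single Fn1 site of largest difference, at 71697557, was at 88.6% and 94.4% in saline, 75.0% and 59.1% in sham, and 88.9% and 56.7% in 5AZA, so the 5AZA libraries lay apart from each other (adjusted p = 0.937 for saline minus sham in the site test).

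Acta2, the actin gene that marks myofibroblasts, had 4 covered sites, all highly methylated. They averaged 95.7% and 95.1% in saline, 94.8% and 88.4% in sham, and 94.9% and 94.6% in 5AZA. The difference between saline and sham was 3.83 points with both sham libraries and 0.679 points against sham 1 alone. Of these, 3 sites form the window chr19:34322001-34323000, at 95.8% and 94.6% in saline, 93.3% and 84.1% in sham, and 94.6% and 93.2% in 5AZA (6.51 points for saline minus sham, 1.89 against sham 1 alone; adjusted p = 0.472). At 34322930 sham 2 was at 75.0% from 44 reads, and the other 5 libraries were between 92.7% and 95.9%. This is a candidate fragment-end site, and the part of that in its levels was not tested. No covered site was placed relative to the Acta2 start.

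Other genes of the pathway, from a list of 46 drawn up with earlier results of these data known, could be examined at their start windows only where a promoter was placed. Of 31 with an entry, 9 were placed, and no start window of the 9 was called in any comparison (smallest adjusted p = 0.484 for saline minus sham, 0.428 for 5AZA minus saline and 0.295 for 5AZA minus sham). They are the ligand gene Pdgfa, the receptor genes Tgfbr1 and Itgav, the signal transducer gene Smad3, the collagen gene Col5a1, the collagen hydroxylase gene P4ha1, the protease inhibitor gene Timp2, and Tpm1 and Vim of the contractile and intermediate filaments. Saline minus sham ranged from −0.0019 points (Smad3) to 4.07 points (Tpm1), with a median of 1.81, and 7 of the 9 had the saline pair above the sham pair, where 32.3% of all windows and 37.4% of windows under 20% did. For 5AZA minus saline the range was −2.63 (Tpm1) to 0.899 points (Itgav), with a median of −0.662, and 3 of the 9 did not overlap, all lower, where 49.1% of all windows and 16.95% of windows under 20% were lower. Tgfbr1, which encodes the type I receptor that transforming growth factor beta signals through, was at 12.3% and 12.4% in saline, 11.6% and 9.36% in sham, and 11.4% and 11.03% in 5AZA. Smad3, the transducer beneath it, was at 12.7% and 13.3%, 14.8% and 11.3%, and 13.0% and 14.6%, with the groups overlapping.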

How the data were processed

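The 6 kidney libraries, 2 per group, were made by reduced representation bisulfite sequencing. Per the submitters' processing notes, Bowtie and mm9 were used; the sources used here give no version, methylation caller or filter. Columns carry no header and were read from the values: the authors deposited, per CpG site, a count of covering reads, a count of methylated reads and the fraction of methylated over covering reads, which matches the counts in every row. Levels are that fraction as a percent. Covering reads are not molecules, since no molecular identifiers are described, and depth limits precision by counting error only as far as reads are independent.

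Sites with at least 10 reads in all 6 libraries were kept. Methylated and unmethylated counts were tested with edgeR 4.0.16 (R 4.3.3; quasi-likelihood, an intercept per library, a group effect on methylated counts, all libraries in 1 fit) over 89813 windows of 1000 bp that held 3 or more sites and over 920122 sites, genome-wide, with Benjamini-Hochberg adjustment; a call is an adjusted p under 0.05. The common dispersion of the window fit was 0.00632. Both tests were tested on simulated data. Window levels are pooled over reads, and span levels are means over sites.

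Promoters came from RefSeq (GRCm38.p6) and were placed on mm9 by CpG spacing (at least 5 coincidences, none contradicted, a single best place); no coordinates were converted. A site was a candidate fragment end where its coverage came within 5% of its left and right neighbours' coverage added up (neighbours no more than 220 bp away, holding 10% of it or more), or where its mean was 30% or more in a window of 10 or more sites whose median was under 5%.

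Members, lists and tests were chosen with earlier results of these data known. Windows named are the called ones, those with a placed promoter and, per span, the 2 of largest difference for saline minus sham and for 5AZA minus saline; sites named are those in placed promoters and, per span, the site of largest saline minus sham difference without overlap. Windows and sites beyond these (those near the Tgfb1 start, the dense Fn1 window and the sites of equal coverage) were chosen after their values were seen. Alternatives were coverage minimums of 5 and 20, limma 3.58.1 on log2 ratios with 1 added, only the 4 libraries compared, windows of 500 bp, no candidate fragment-end sites, read-weighted spans, a replicate block and each library left out. For the level over all members, over the genome and in the site classes, leaving out each sham library was added after the data were seen.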

Additional observations from a re-analysis of the deposited data

How the results depend on the processing

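No member window was called for saline minus sham or 5AZA minus sham under any alternative run. The genome-wide count for saline minus sham, 45, became 0 with limma (9756 at an unadjusted p under 0.05), 72 with only the 4 libraries compared, 28 with windows of 500 bp, 0 without candidate fragment-end sites (8452 unadjusted) and 0 to 72 with a library left out (0 without saline 1, 7 without saline 2, 1 without sham 2). The count for 5AZA minus saline, 1396, became 850 at a coverage minimum of 20, 0 with limma (18379 unadjusted), 173 with only the 4 libraries, 413 with windows of 500 bp, 0 without candidate fragment-end sites (17897 unadjusted) and 0 to 1180 with a library left out (0 without either saline library, 4 without 5AZA 2, 170 without sham 1, 140 without sham 2). The member count of 1 became 0 under these 5 settings (coverage minimum of 20, limma, 4 libraries, 500 bp, no candidate fragment-end sites), with the smallest member adjusted p between 0.0572 and 0.137, and 0 to 2 with a library left out. The called Col4a1 window holds no candidate fragment-end site, and its difference was unchanged at −12.8 points in the fit without such sites; the common dispersion of that fit was 0.0185 against 0.00632. The count for 5AZA minus sham, 1, became 0 with limma (12357 unadjusted), 0 without candidate fragment-end sites (12078 unadjusted) and 1 to 148 with a library left out (2 without sham 1, 6 without sham 2, 148 without 5AZA 1). Where a group kept a single library, the fit took its spread from the other groups, and beyond what is said here the cause of these changes was not tested.

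Saline and 5AZA libraries share the numbers 1 and 2 in the labels, but nothing says that a number marks a shared mouse or batch. The differences between numbers correlated across windows of intermediate level at 0.118 over 2 pairs. With the replicate block the count for 5AZA minus saline became 2321, of which 1395 were called without it too, and 1 member window, the same Col4a1 window, was called (adjusted p = 0.035). No paired analysis was possible for the comparisons with sham because sham 2 carries no number.

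Of the span differences for saline minus sham and 5AZA minus saline, those of 6 spans kept their sign under all 8 alternatives. Fn1 did not: weighted by reads it was −5.77 points for saline minus sham and 3.28 points for 5AZA minus saline. Differences of 5AZA minus sham changed sign under at least 1 alternative for Acta2, Col1a2 and Tgfb1. Only 455 of 970 sites in the spans had the depth used here, and the levels of Col1a2, Col3a1 and Acta2 rest on 9, 3 and 4 sites.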
